A study of Mus musculus with 10 samples.

Results

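Cell cycle and DNA replication genes were followed in whole adrenal glands of 5 Crem knock-out (KO) and 5 wild-type (WT) mice, 1 array per mouse. The set holds 43 listed genes, 20 of DNA replication and its G1/S control and 23 of mitosis. A gene was represented by the probe annotated to that gene symbol alone with the highest mean level, out of 19661 genes with such a probe. In this way 41 of the 43 genes were measured, 19 of replication and 22 of mitosis. Pcna and Ccnb1 had no probe that met this rule and were not analysed here.

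KO mice were labelled Crem-/-: both copies of Crem, which encodes a transcription factor that answers to cAMP signalling, were disrupted. WT mice carried the intact gene. All mice were 8 weeks old, untreated, of a mixed background (129Pas x C57Bl/J), and were killed at 0 h of circadian time. The labels name 4 batches without saying what was shared within one: batch 1 held KO 1, KO 2 and WT 1, batch 2 held KO 3 and KO 4, batch 3 held KO 5, WT 2, WT 3 and WT 4, and batch 4 held WT 5 (numbers after the genotype name the mice). Levels are deposited log2 values after RMA, which corrects background, normalises between arrays and summarises the probes of a gene. Differences are KO minus WT on that log2 scale, with the genotypes as labelled.

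Replication genes are mostly switched on by E2F factors as a cell passes from G1 into S phase: their products load the MCM helicase on origins, fire it, supply deoxynucleotides and copy the DNA. Mitosis genes follow in G2 and M phase, where many are held off or driven through the cell cycle homology region (CHR) of their promoters, and their products condense and separate the chromosomes and divide the cell. In the adult adrenal gland most cells are quiescent, dividing cells lie mainly in the outer cortex, and in a whole gland fewer dividing cells and less RNA per dividing cell cannot be told apart.

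Promoters of 33 of the 41 measured genes were found in the RefSeq table (GRCm38.p6, 250 bases before to 50 bases after the start of the gene), 15 of replication and 18 of mitosis. The 4 shown here are those of the replication genes whose level followed Mcm5 most closely, Mcm2 and Mcm7, and of the mitosis genes that followed Mki67 most closely, Cenpe and Kif11. Capitals mark matches, on either strand, to the E2F site, the CHR, the CCAAT box and the cAMP responsive element (CRE).
Mcm2 (chr6:88898731-88899030, minus strand): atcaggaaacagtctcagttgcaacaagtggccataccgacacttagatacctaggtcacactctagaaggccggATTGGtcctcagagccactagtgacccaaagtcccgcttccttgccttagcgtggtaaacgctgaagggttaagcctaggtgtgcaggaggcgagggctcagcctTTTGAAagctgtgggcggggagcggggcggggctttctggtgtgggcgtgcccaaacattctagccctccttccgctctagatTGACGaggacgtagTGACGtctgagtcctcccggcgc
Mcm7 (chr5:138171834-138172133, minus strand): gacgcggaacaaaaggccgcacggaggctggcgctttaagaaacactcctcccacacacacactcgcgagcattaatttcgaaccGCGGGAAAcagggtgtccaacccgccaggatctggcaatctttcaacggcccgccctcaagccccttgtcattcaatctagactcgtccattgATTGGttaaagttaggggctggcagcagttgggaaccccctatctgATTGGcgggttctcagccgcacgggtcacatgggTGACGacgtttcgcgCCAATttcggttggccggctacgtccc
Cenpe (chr3:135212313-135212612, plus strand): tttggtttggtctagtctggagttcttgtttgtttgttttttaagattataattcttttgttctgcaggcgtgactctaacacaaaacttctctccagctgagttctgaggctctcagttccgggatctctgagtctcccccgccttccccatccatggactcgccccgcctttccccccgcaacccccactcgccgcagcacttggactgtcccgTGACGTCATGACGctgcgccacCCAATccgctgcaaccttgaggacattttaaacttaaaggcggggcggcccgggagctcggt
Kif11 (chr19:37376132-37376431, plus strand): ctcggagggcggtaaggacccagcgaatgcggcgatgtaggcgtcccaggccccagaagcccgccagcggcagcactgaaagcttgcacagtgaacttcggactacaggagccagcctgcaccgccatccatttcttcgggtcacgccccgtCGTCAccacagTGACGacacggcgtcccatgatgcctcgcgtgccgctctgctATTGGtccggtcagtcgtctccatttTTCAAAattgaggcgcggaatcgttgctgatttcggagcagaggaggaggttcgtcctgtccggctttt

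The Mcm7 promoter held an E2F site, GCGGGAAA, and 3 CCAAT boxes in either orientation. The Mcm2 promoter held no E2F match, but a CHR, TTTGAA. The Kif11 promoter paired a CCAAT box (ATTGG) with a CHR in reverse (TTCAAA), and the Cenpe promoter held a full CRE, TGACGTCA, the palindrome that CREM and CREB bind, followed directly by a further TGACG.

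Across the set the 2 lists differed in their promoters. The E2F site (searched as TTTCCCGC, TTTGGCGC, TTTCCCGG and TTTGGCGG on both strands) was found in 6 of 15 replication promoters (40%), those of Cdc6, Cdt1, Mcm3, Mcm5, Mcm6 and Mcm7, and in 2 of 18 mitosis promoters (11.1%), those of Birc5 and Melk. Of all 27025 promoters in the table, 3.4% held it. The CHR (TTTGAA) showed the opposite order, with 2 of 15 replication promoters (13.3%) and 13 of 18 mitosis promoters (72.2%), among them those of Cdk1, Ccnb2, Plk1, Cdc20, Top2a and Mki67, beside 18.1% of all promoters. In the mitosis promoters 7 of the 18 held it before the start of the gene (38.9%), so 6 of the 13 owed their match to bases after or across the start.

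The CCAAT box was present in 9 of 15 replication promoters (60%) and 15 of 18 mitosis promoters (83.3%), beside 37.9% of all promoters. The full CRE was found in 1 promoter of each list, Mcm5 and Cenpe, which is 6.06% of the 33 beside 1.88% of all. The short CRE, TGACG, which every full CRE also contains, was found in 4 replication promoters (26.7%) and 6 mitosis promoters (33.3%), beside 21% of all. A match describes the letters of this window only.

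Over the whole series the array medians lay between 7.17 and 7.25, and pairwise correlations were 0.908 to 0.992 over 25664 probes. The first principal component, computed without the 41 genes, held 53.8% of the variance. It set KO 2, KO 5 and WT 3 (scores 0.43 to 0.49) apart from the other arrays (scores -0.38 to 0.12). The second component held 24.9% and set KO 1 (score -0.84) apart from the other arrays (scores -0.13 to 0.29). Crem itself did not separate the labels: it read 7.38, 7.97, 6.86, 6.84 and 7.77 on the KO arrays, against 7.45, 7.23, 8.14, 7.62 and 7.27 on the WT arrays. The sources used here do not say which part of Crem was deleted, so the probe neither checks nor contradicts the labels. The steroidogenic markers of the adrenal cortex were high on every array, with list means of 12.39 to 12.93 in KO and 12.78 to 12.95 in WT mice. KO 1 had the lowest chromaffin list mean, 8.13 against 10.98 to 11.85 on the other KO arrays and 11.11 to 11.85 on WT arrays, and the highest liver and pancreas mean, 11.12 against at most 8.24 elsewhere. KO 1 and KO 3 were highest in adipocyte markers (12.61 and 12.37, against 8.94 to 10.71 in WT mice). The part of these tissue differences in the results was not tested.

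The comparison of KO with WT asks whether loss of Crem goes with another level of cell cycle transcripts in the adrenal gland. No gene of the set changed by the test across all probes. Replication genes leaned lower in KO adrenals, with all 6 MCM helicase subunits and all 3 measured genes of nucleotide supply below WT, while mitosis genes were spread evenly around 0. Esco2 was the only gene of the 41 whose KO and WT values did not overlap.

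With limma and Benjamini-Hochberg adjustment, 0 of 25664 probes (0%) and 0 of the 41 genes were called (lowest adjusted p 0.999). Unadjusted, 237 probes were higher in KO (0.923%) and 641 lower (2.5%) at p under 0.05. Of the set, Esco2 and Ccne2 were among the higher and Mcm3 among the lower. The median difference was -0.12 over the 19 replication genes, of which 5 were higher and 14 lower in KO. It was 0.02 over the 22 mitosis genes (13 higher, 9 lower) and 0.00 over all probes.

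The mean level of the 19 replication genes was 7.36, 7.38, 7.44, 7.72 and 7.37 on the KO arrays, against 7.66, 7.75, 7.37, 7.42 and 7.67 on the WT arrays. The groups averaged 7.46 ± 0.15 in KO and 7.58 ± 0.17 in WT mice (SD, n = 5 each). KO 4 reached the upper WT arrays, and WT 3 and WT 4 lay among the lower KO arrays. For the 22 mitosis genes the means were 6.55, 6.46, 6.45, 6.65 and 6.63 in KO, against 6.69, 6.52, 6.53, 6.40 and 6.49 in WT mice, so the ranges overlapped nearly throughout.

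**Figure D1:**
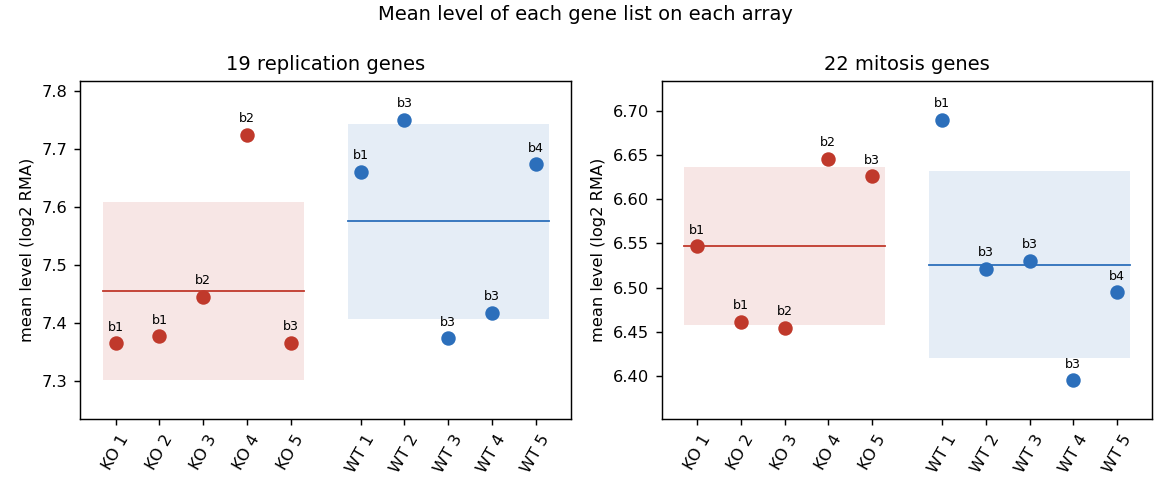
Mean log2 RMA level of the 19 measured replication genes (left panel) and 22 mitosis genes (right panel) on each of 10 arrays. Points are arrays with their batch (b1 to b4), lines are group means and shaded bands are 1 SD of 5 arrays. The replication mean was 7.46 in KO and 7.58 in WT mice, with KO 4 at 7.72 among the upper WT arrays.

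With batch as a block, the median difference was -0.27 for replication and -0.02 for mitosis genes, beside -0.06 for all probes. Within batch 1 (2 KO, 1 WT) it was -0.31 and -0.26, and within batch 3 (1 KO, 3 WT) it was -0.20 and 0.09. Of the 19 replication genes, 16 were lower in KO with the block, and 15 within each of the batches. Batches 2 and 4 held a single genotype, so the block fit rests on batches 1 and 3 and these counts are not separate checks. Within batch 1 all genes share 1 WT array, and within batch 3 they share 1 KO array. With the first component as covariate the median of the replication genes was -0.12, with 13 of 19 lower. Without KO 2, KO 5 and WT 3 the median of the replication genes was -0.05, with 11 of 19 lower.

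Several marker lists of other cells and tissues had a median difference of as large a size as that of the replication genes, or larger. The chromaffin list had a median difference of -0.80 (0 higher, 11 lower), the endothelial list -0.33 (0 higher, 10 lower) and the zona glomerulosa list -0.31 (1 higher, 8 lower). The macrophage list was at -0.25 (0 higher, 12 lower), the capsule and stroma list at -0.21 (1 higher, 10 lower) and the steroidogenic list at -0.14 (1 higher, 9 lower). On the other side lay the lymphocyte list at 0.15, the adipocyte list at 0.43 and the liver and pancreas list at 1.26. Without KO 1 and KO 3, the adipocyte list was at -0.90, the liver and pancreas list at -0.11 and the lymphocyte list at -0.04. The chromaffin list was then at -0.13 and the steroidogenic list at 0.02. The endothelial (-0.14), macrophage (-0.46), capsule and stroma (-0.33) and zona glomerulosa (-0.17) lists stayed lower, as did the replication genes (-0.11). None of the genes of the marker lists was called by limma. The part of these lists in the lean of the replication genes was not tested.

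Among the genes with the smallest p, Esco2, the acetyltransferase that locks cohesin on newly copied DNA, read 5.12, 5.17, 5.39, 5.39 and 5.27 in KO, against 4.90, 4.89, 5.08, 4.83 and 5.09 in WT mice. The difference was 0.31 ± 0.10 (SE; adjusted p = 0.999 by limma), a 1.24-fold higher level. Every KO array was above every WT array, by as little as the gap between 5.12 and 5.09. Over all probes, 0.269% lay wholly higher in KO and 0.413% wholly lower. The Esco2 difference stayed between 0.25 and 0.37 in every fit with another model, normalisation or choice of arrays, but the separation did not: after the arrays were shifted to a common median, 0 of the 41 genes had KO and WT values without overlap.

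Ccne2, a cyclin E that drives entry into S phase, read 5.57, 5.77, 5.36, 5.28 and 5.78 in KO, against 5.17, 5.17, 5.50, 5.14 and 4.82 in WT mice (difference 0.40 ± 0.15, SE). WT 3 lay within the KO range, and the other WT arrays lay below all KO arrays. Esco2 and Ccne2 both read below the array medians of 7.17 to 7.25 on every array. Ccne1, the gene of the other cyclin E, read 7.20, 8.74, 8.13, 8.35 and 7.64 in KO, against 8.43, 8.66, 8.10, 7.97 and 8.62 in WT mice. The difference of Ccne1 was -0.34 ± 0.27 (SE), the opposite sign, with KO 1 and KO 5 below every WT array and KO 2 above all. E2f1, the factor upstream of both, averaged 7.74 ± 0.48 in KO and 7.89 ± 0.23 in WT mice (SD, n = 5 each).

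**Figure D2:**
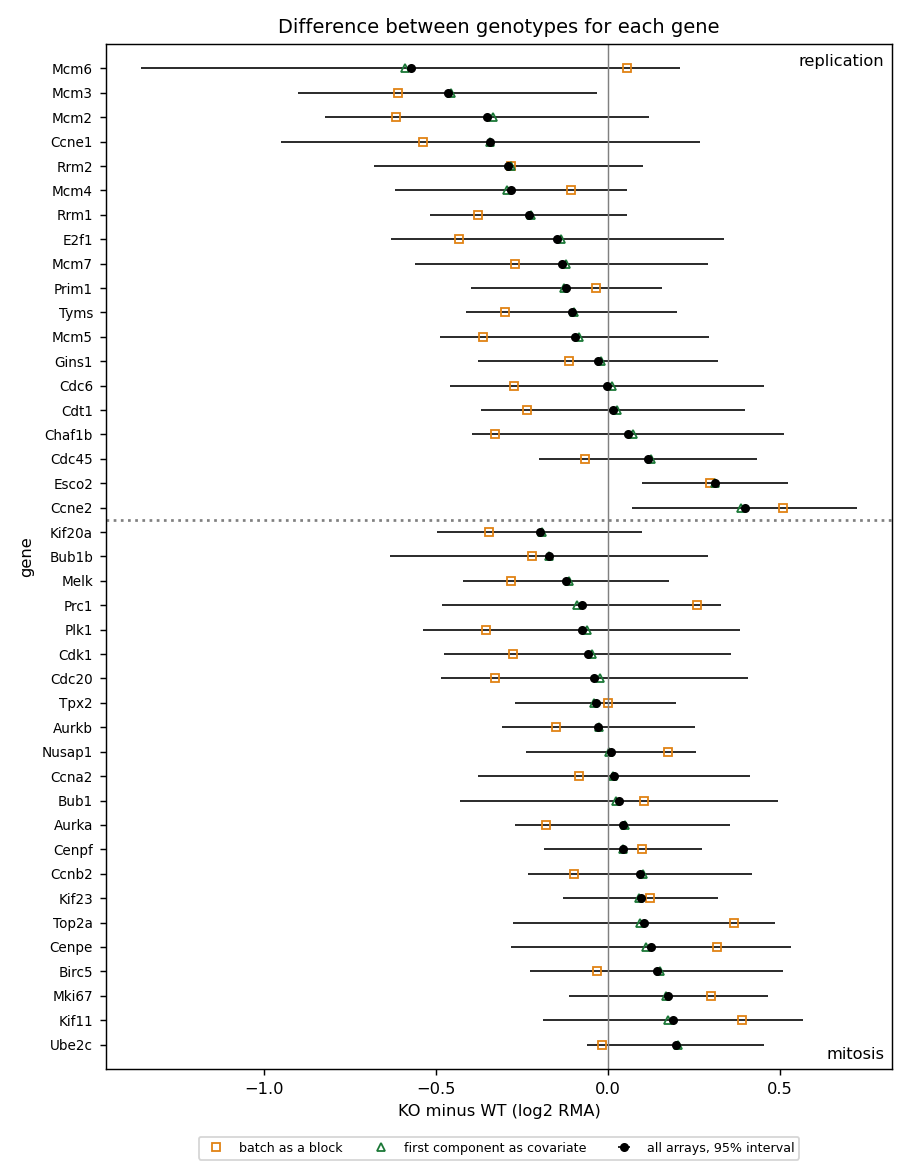
Difference between KO and WT mice (log2 RMA, horizontal axis) for each of 41 genes, replication genes above and mitosis genes below the dotted line. Points with bars are the fit on all arrays with its 95% interval, squares the fit with batch as a block, triangles the fit with the first component as covariate. The intervals of Esco2, Ccne2 and Mcm3 leave out 0, and Mcm6 moves from -0.57 to 0.05 with the block.

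The MCM2-7 helicase unwinds DNA ahead of the replication fork. Mcm3 read 7.85, 7.67, 7.99, 8.36 and 8.00 in KO, against 8.78, 8.68, 8.10, 7.93 and 8.70 in WT mice. The difference was -0.47 ± 0.20 (SE; adjusted p = 0.999), or -1.02 within batch 1 and -0.24 within batch 3. WT 1, WT 2 and WT 5 stood above all KO arrays, while WT 3 and WT 4 lay inside the KO range.

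Mcm2 read 8.91, 8.50, 9.13, 9.53 and 8.67 in KO, against 9.45, 9.57, 8.88, 9.05 and 9.55 in WT mice (difference -0.35 ± 0.21, SE). As for Mcm3, WT 1, WT 2 and WT 5 were high and KO 2 was lowest, and KO 4 was the one KO array near the top. Mcm4 read 7.42, 7.88, 7.18, 7.62 and 7.74 in KO, against 7.66, 7.66, 8.04, 8.10 and 7.79 in WT mice (difference -0.28 ± 0.15, SE). Here WT 3 and WT 4, low for Mcm2 and Mcm3, were the highest arrays.

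Mcm5 read 7.69, 7.36, 7.90, 8.23 and 7.54 in KO, against 8.06, 8.10, 7.60, 7.57 and 7.88 in WT mice, and the difference was -0.10 ± 0.18 (SE). Mcm7 differed by -0.14 ± 0.19 (SE). Mcm6 had the largest spread of the 41 genes, an SD of 0.66 over the 10 arrays beside a median SD of 0.25 over all probes. It read 7.55, 8.88, 7.02, 7.66 and 8.23 in KO, against 7.96, 8.81, 8.16, 8.10 and 9.18 in WT mice. The difference of -0.57 ± 0.35 (SE) became 0.05 with batch as a block, so subunits of one complex did not keep one order over the arrays.

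Among the genes of deoxynucleotide supply, Rrm1, the large subunit of ribonucleotide reductase, read 9.46, 9.45, 9.52, 9.88 and 9.48 in KO, against 10.03, 9.88, 9.47, 9.70 and 9.87 in WT mice (difference -0.23 ± 0.13, SE). All KO arrays but KO 4 lay below all WT arrays but WT 3. Rrm2, its small subunit, read 7.28, 6.97, 7.37, 7.66 and 7.70 in KO, against 7.87, 7.88, 7.21, 7.61 and 7.85 in WT mice (difference -0.29 ± 0.18, SE). Tyms, which makes thymidylate, differed by -0.11 ± 0.14 (SE).

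Genes that load and fire origins lay close to 0, between -0.03 for Gins1 and 0.12 for Cdc45, with Cdt1 at 0.01 and Cdc6 even closer to 0. With batch as a block all 4 were lower in KO, at -0.27 for Cdc6, -0.24 for Cdt1, -0.11 for Gins1 and -0.07 for Cdc45. Prim1, a primase subunit, differed by -0.12 ± 0.13 (SE), and Chaf1b, of the histone chaperone behind the fork, by 0.06 ± 0.21 (SE), or -0.33 with the block. In the fit without the block the 95% interval of each of these genes held 0. The narrowest was -0.40 to 0.16 for Prim1 and the widest -0.46 to 0.45 for Cdc6. Differences inside the interval of a gene are not excluded for that gene.

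Mki67, the usual marker of dividing cells, read 6.12, 6.20, 6.05, 6.20 and 6.54 in KO, against 6.04, 5.96, 6.41, 5.88 and 5.94 in WT mice. The difference was 0.17 ± 0.13 (SE), with a 95% interval of -0.11 to 0.46. Each KO array was above every WT array other than WT 3, which was the second highest of all 10.

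Top2a, the topoisomerase that untangles sister chromatids, read 6.65, 6.75, 6.04, 6.42 and 6.90 in KO, against 6.45, 6.14, 6.75, 6.41 and 6.48 in WT mice (difference 0.10 ± 0.17, SE). A second Top2a probe, of lower mean, averaged 3.76 in KO and 3.76 in WT mice. Cdk1, the kinase that starts mitosis, read 7.49, 6.72, 7.25, 7.46 and 7.00 in KO, against 7.63, 7.32, 6.95, 6.91 and 7.41 in WT mice (difference -0.06 ± 0.19, SE). Its partner cyclins Ccna2 and Ccnb2 differed by 0.02 and 0.09.

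Ube2c, the ubiquitin-conjugating enzyme of the anaphase-promoting complex, had the smallest p of the mitosis genes. It read 7.40, 7.09, 7.46, 7.43 and 7.02 in KO, against 7.29, 7.07, 7.00, 6.98 and 7.08 in WT mice (difference 0.20 ± 0.12, SE). With batch as a block the difference was -0.02. Cdc20, which activates the same complex, differed by -0.04.

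The mitotic kinases and checkpoint genes Aurka, Aurkb, Plk1, Melk, Bub1 and Bub1b ranged from -0.17 (Bub1b) to 0.04 (Aurka). The kinesins and spindle genes ranged from -0.20 for Kif20a, a kinesin of cytokinesis, to 0.19 for Kif11, the motor that pushes spindle poles apart. Kif23, Tpx2, Nusap1 and Prc1 lay between them. The kinetochore motor Cenpe, the kinetochore protein Cenpf and Birc5, or survivin, were at 0.12, 0.04 and 0.14.

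**Figure D3:**
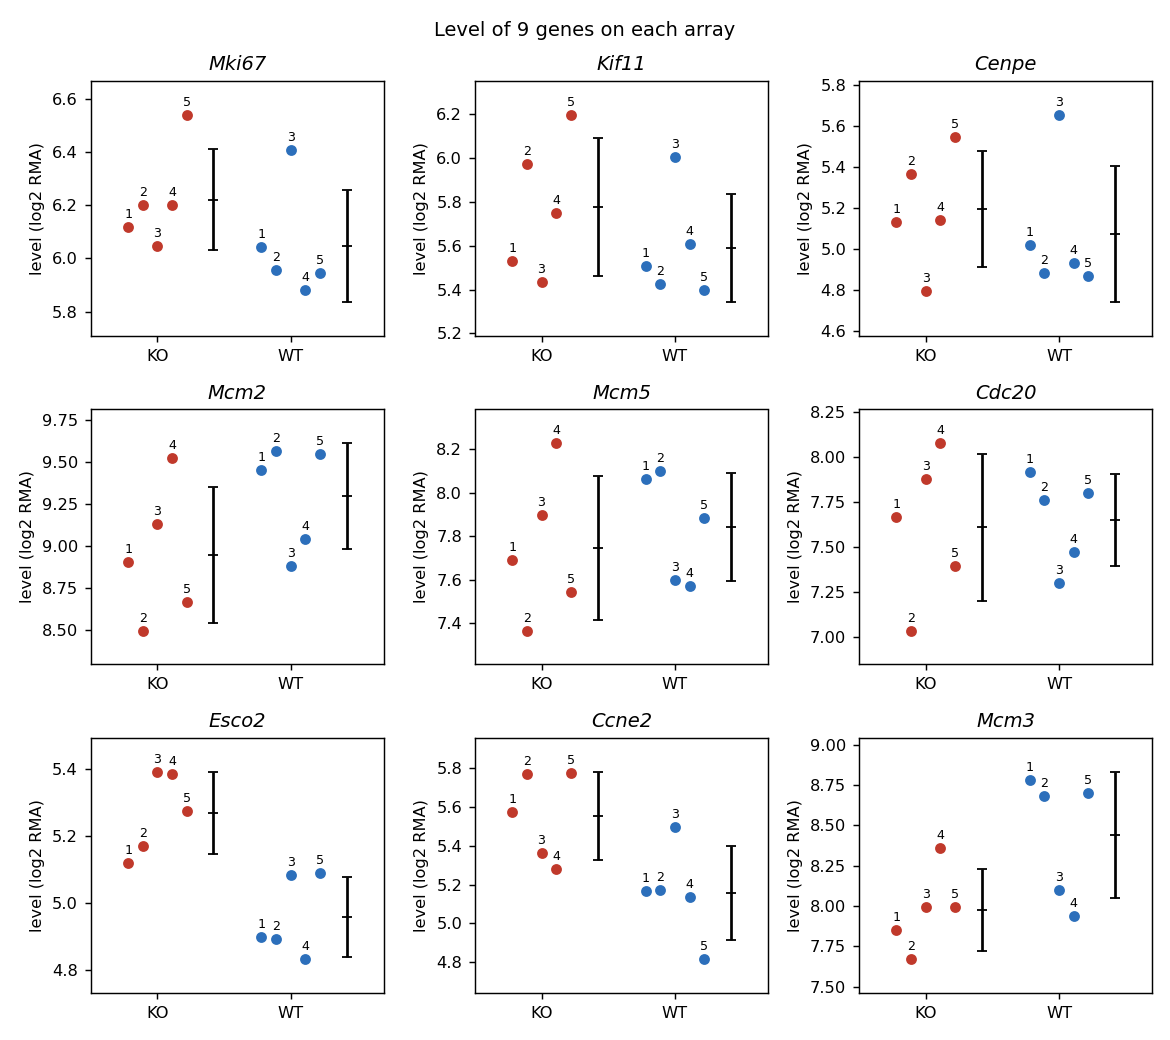
Log2 RMA level of 9 genes on each array, numbered by mouse, with the mean and SD of 5 arrays beside each group. In the top row KO 2, KO 5 and WT 3 are the highest arrays for Kif11 and Cenpe, and KO 5 and WT 3 for Mki67, in the middle row the same arrays are low for Mcm2, Mcm5 and Cdc20, and the bottom row has the 3 genes with the smallest p between KO and WT mice.

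The larger pattern in these genes ran across genotypes. On KO 2, KO 5 and WT 3, the arrays set apart by the first component, one portion of the set tended to be high and another low, and each portion held replication and mitosis genes. Mki67, Kif11, Cenpe, Top2a, Prc1 and Nusap1 of mitosis and Mcm4, Prim1 and Ccne2 of replication tended to be high there, though Prim1 was not on KO 5. Mcm2, Mcm5, Mcm7, Cdc6, Cdt1, Cdc45, Chaf1b and Tyms of replication and Cdk1, Ccnb2, Plk1, Cdc20, Aurka, Melk, Ube2c and Birc5 of mitosis tended to be low.

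The first portion are the 9 genes with a Pearson r with the component above 0.6 and the second portion the 16 genes with r below -0.6, over 10 arrays that share the same normalisation; the bound was chosen after the values were seen. Of all probes, 20.1% and 33.3% lay past the same bounds, so the set followed the component about as often as probes in general. The extremes were Kif11 at 0.87 and Cdc20 at -0.92. Mcm subunits were found on both sides, with Mcm5 at -0.82 and Mcm4 at 0.71.

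**Figure D4:**
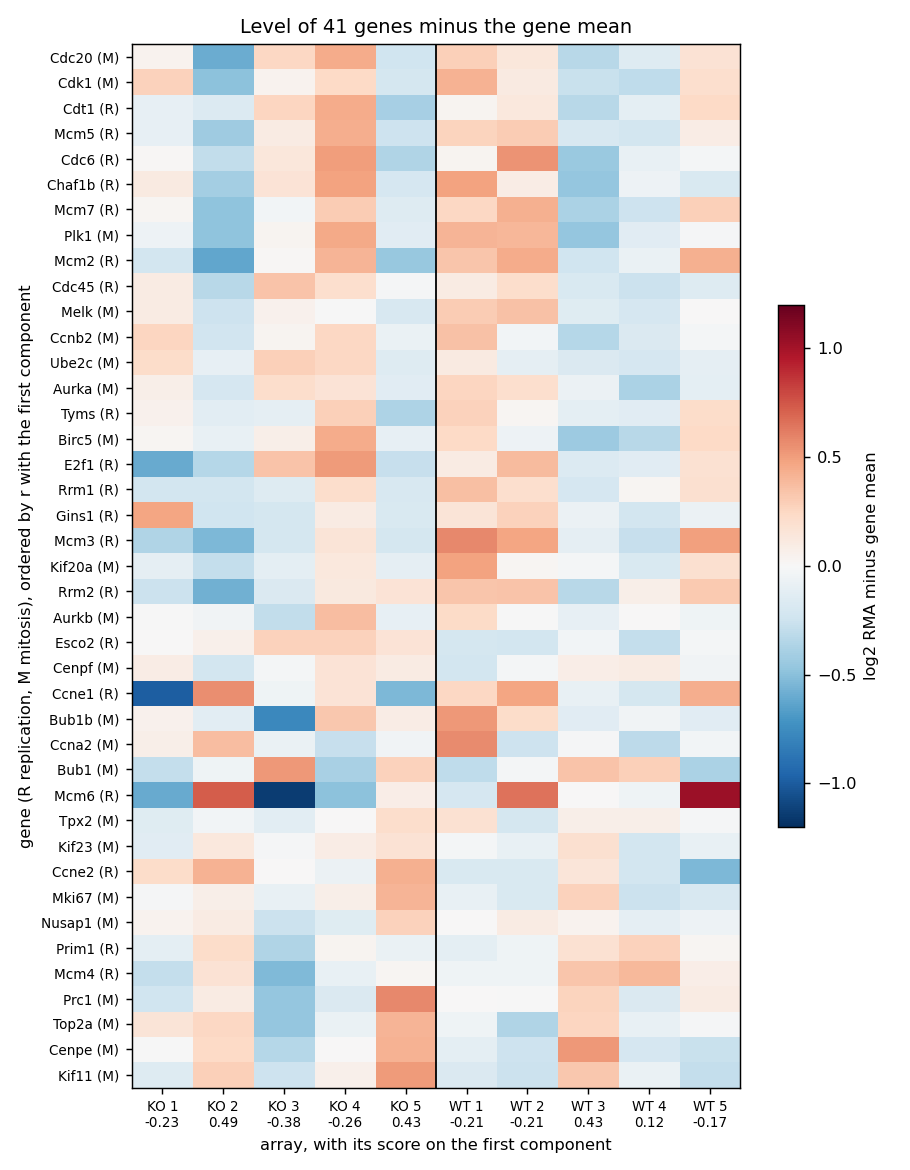
Level of 41 genes (rows, R for replication and M for mitosis) on 10 arrays (columns, KO left and WT right), as log2 RMA minus the mean of the gene. Rows run from the most negative r with the first component, Cdc20 at -0.92, to the most positive, Kif11 at 0.87, and the score of each array stands under its name. KO 2, KO 5 and WT 3 are mostly low in the upper rows and high in the lower rows, and Mcm6 has the widest spread.

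Genomic span differed along the same axis. The 9 genes high on the 3 arrays had a median span of 26667 bp in RefSeq, against 15002 bp for the 16 genes that were low. Over all genes the medians were 38517 and 13247 bp. Across genes, which are not independent replicates, Spearman's rho between span and r was 0.38 for the 41 genes and 0.23 for 19584 genes. The part of span in the pattern was not tested.

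Other readings moved with the same arrays. The 15 measured replication-dependent histone genes, whose transcripts rise in S phase and mostly lack a poly(A) tail, had list means of 7.44, 7.48 and 7.22 on KO 2, KO 5 and WT 3. The other KO arrays had 7.68 to 7.99 and the other WT arrays 7.53 to 8.04. Clk1, a splicing-factor kinase, read 11.69, 12.11 and 12.02 on the 3 arrays, against 8.28 to 9.85 on the other KO arrays and 8.84 to 10.66 on the other WT arrays. The macrophage list had 8.66, 9.19 and 9.21 there, against 9.39 to 9.78 on the other KO and 9.29 to 9.85 on the other WT arrays. The sex-linked list, with 4 of 5 genes measured, had 8.58, 8.80 and 8.77 on the 3 arrays, against 7.09 to 7.31 on the other KO and 6.96 to 7.69 on the other WT arrays. Its 3 Y-linked genes, Eif2s3y, Kdm5d and Uty, were each highest on the 3 arrays, while Xist stayed between 4.62 and 5.26 on all 10. The part of these readings in the pattern was not tested.

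To ask which genes move with proliferation markers from mouse to mouse, each probe was regressed on the level of Mki67, a mitosis gene, or of Mcm5, a replication gene, with genotype as a second term. With Mcm5, 16 of the other 40 genes had a positive slope past an adjusted p of 0.05 and 0 a negative one, beside 19.5% and 13.8% of all probes. They comprised 9 of 18 replication genes, among them Mcm2, Mcm3, Mcm7, Cdc6, Cdt1 and E2f1, and 7 of 22 mitosis genes, among them Plk1, Cdc20, Cdk1 and Aurka. At an unadjusted p under 0.05, 3 genes had a negative slope, Mcm4, Ccne2 and Top2a, beside 17.3% of all probes.

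Mcm2 rose by 1.18 for each log2 unit of Mcm5 (adjusted p = 0.0043 by limma), Plk1 by 1.12 and Cdc20 by 1.09 (adjusted p = 0.0057 and 0.0057). Without KO 2, KO 5 and WT 3 no probe was called, and none was with the first component as a further term. The slope of Mcm2 was then 1.02 ± 0.25 and 0.95 ± 0.27 (SE), against 1.18 ± 0.16 in the fit on all arrays. For Mcm2 the slope thus stayed near its size while its error grew. The slope of Plk1 was 1.04 and 1.07 in these fits and that of Mcm3 1.27 and 1.22, against 0.98 on all arrays. That of Cdc20 was smaller, 0.72 and 0.65. Adding the first component lowered the slope of every gene called without it, other than Mcm3, Rrm1 and E2f1. Cdk1 fell from 0.88 to 0.40, Ccnb2 from 0.60 to 0.26, Melk from 0.55 to 0.27 and Cdt1 from 0.82 to 0.47. Rrm1 rose from 0.57 to 0.65 and E2f1 from 1.04 to 1.33.

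**Figure D5:**
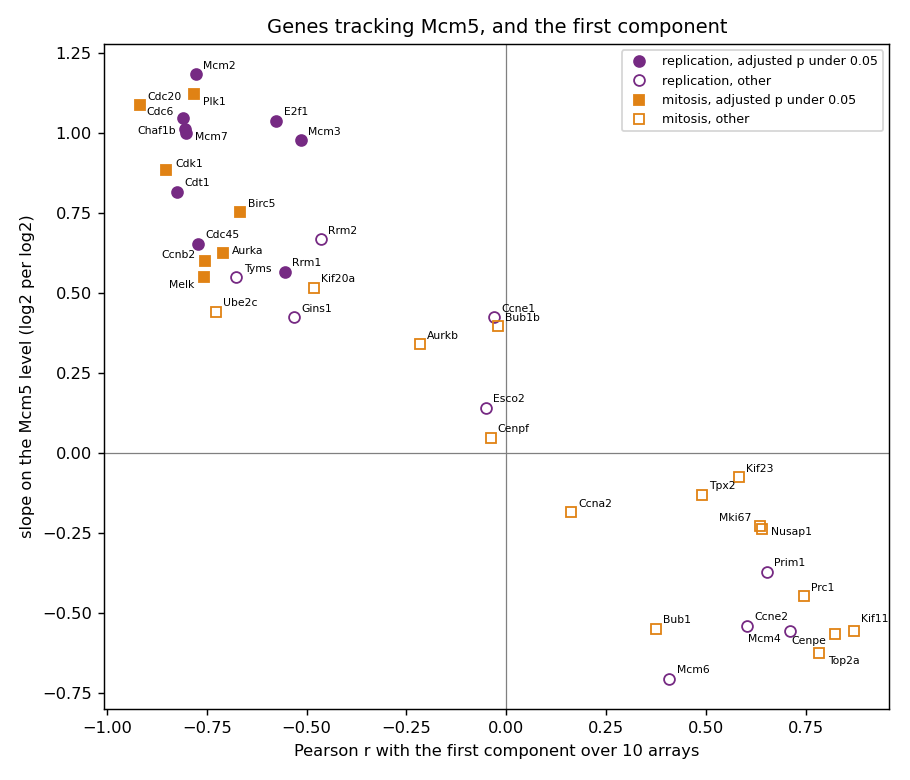
Slope of each of 40 genes on the level of Mcm5 (log2 per log2, vertical axis, genotype as second term) against its Pearson r with the first component over 10 arrays (horizontal axis). Circles are replication and squares mitosis genes, filled where the adjusted p was under 0.05. The 16 filled points, led by Mcm2 at 1.18, all lie at negative r, and genes at positive r have negative slopes.

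With Mki67, none of the other 40 genes and 0 of 25663 probes (0%) were called by limma. At an unadjusted p under 0.05, 6 genes had positive slopes (Cenpe, Kif11, Prc1, Top2a, Kif23 and Ccne2) and Cdt1 a negative one, beside 10.4% and 9.75% of all probes. Without KO 2, Cenpe and Kif11 passed the adjusted threshold (adjusted p = 0.015 and 0.030), together with 4.85% of all probes on the positive side.

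Once KO 2, KO 5 and WT 3 were left out, the genes of the set followed each other more evenly, a view taken after the values were seen. Over the remaining 7 arrays, 19 of 21 mitosis and 16 of 19 replication genes had a positive slope on Mki67, 87.5% of the 40 genes beside 52.4% of all probes. At an unadjusted p under 0.05, 11 of the 40 were positive (27.5%, beside 1.57% of all probes). These were Bub1b, Kif20a, Aurkb, Plk1, Cdk1, Ccnb2 and Birc5 of mitosis and Tyms, Chaf1b, Mcm3 and Rrm1 of replication. Bub1 alone had a negative slope at that p (2.5%, beside 1.1% of all probes), and no probe was called after adjustment (smallest adjusted p = 0.995). Mki67 itself spanned only 5.88 to 6.20 on these arrays.

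With Mcm5 over the same 7 arrays, 34 of 40 genes (85%) had a positive slope, beside 58% of all probes, and 12 passed an unadjusted p under 0.05 (30%, beside 10.3%). They included Mcm3, Plk1, Mcm2, Ccne1, Mcm7, Cdc20 and E2f1. With the first component as a term on all 10 arrays, slopes on Mki67 were positive for 34 of 40 genes (85%, beside 51% of all probes), all 21 mitosis genes among them, and 2 passed an unadjusted p under 0.05 (5%, beside 1.96%). Slopes on Mcm5 were then positive for 37 of 40 genes (92.5%, beside 57.7%), and 6 passed it (15%, beside 6.93%).

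Correlations were computed for 5 pairs of genes over the 10 arrays, with permutation tests (two-sided) adjusted over the 5 pairs. Mki67 and Top2a gave r = 0.73 (rho = 0.69, permutation p = 0.017 and 0.033, adjusted 0.083 and 0.17). Mcm5 and Rrm2 gave r = 0.66 (rho = 0.59, permutation p = 0.039 and 0.081, adjusted 0.097 and 0.20). Neither passed the adjustment, and without the 2 arrays farthest from the median of the first gene r was 0.45 and 0.55.

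The other pairs were negative over all 10 arrays: Mki67 with Mcm5 at -0.38 (rho = -0.30), Mki67 with Cdk1 at -0.35 (rho = -0.18) and Mcm5 with Mcm6 at -0.21 (rho = -0.36), with adjusted permutation p from 0.40 to 0.61. Without KO 2, KO 5 and WT 3 all 5 were positive. Over those 7 arrays, Mki67 gave 0.63 with Cdk1, 0.49 with Mcm5 and 0.22 with Top2a, and Mcm5 gave 0.50 with Rrm2 and 0.078 with Mcm6 (adjusted exact permutation p = 0.44, 0.44, 0.79, 0.44 and 0.87). No batch held enough arrays for a correlation of its own. Mki67 with Pcna could not be run.

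Among the other genes of the cycle, the list of G1 regulators and cell cycle inhibitors held most of the genes past an unadjusted p under 0.05. None was called between KO and WT mice after adjustment. Of 38 measured G1 regulators and inhibitors, 5 were lower at an unadjusted p under 0.05 (Ccnd1, Wee1, Mycn, Cdkn1c and Cdk2) and 0 higher. Of all probes, 2.5% were lower and 0.923% higher at that p. The median difference of the list was -0.07. The direction of the list turned with batch as a block, with a median of 0.04 (20 higher, 18 lower). In that fit 1 was lower and 2 were higher at that p, beside 1843 of 25664 probes in either direction. The median was 0.11 within batch 1 and 0.04 within batch 3. For 3 of them, Ccnd1, Wee1 and Mycn, the KO arrays all lay below the WT arrays, which held for 0.413% of all probes.

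Ccnd1, cyclin D1 of the G1 phase, read 10.20, 10.72, 10.04, 10.92 and 10.75 in KO, against 11.06, 11.30, 10.97, 11.61 and 11.40 in WT mice (difference -0.74 ± 0.19, SE). Wee1, the kinase that holds CDK1 inactive, averaged 7.99 ± 0.29 in KO and 8.57 ± 0.17 in WT mice (SD, n = 5 each). Mycn, a transcription factor of the MYC family, averaged 7.56 ± 0.30 in KO and 8.20 ± 0.25 in WT mice (SD, n = 5 each). Since no KO array reached a WT array for these 3 genes, each had to be lower within batches 1 and 3 as well. The direction within batches is therefore no further support. The size was 0.60 and 0.54 for Ccnd1, 0.55 and 0.37 for Wee1, and 0.56 and 1.02 for Mycn.

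Cdkn1c, the CDK inhibitor p57, averaged 10.05 ± 0.38 in KO and 10.56 ± 0.37 in WT mice (SD, n = 5 each), with a difference of -0.54 within batch 1 and 0.17 within batch 3. Ccng2 and Cdkn2c, of the same list, had the smallest p on the higher side, at 0.38 ± 0.23 and 0.35 ± 0.28 (SE). Cdkn1a was not among the genes measured here.

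Of 48 other replication genes, 16 were higher and 32 lower in KO, with a median of -0.06. At an unadjusted p under 0.05, 1 was lower, beside 2.5% of all probes. This was Dnmt1, which copies DNA methylation, at -0.42 ± 0.18 (SE). Gins3, of the GINS complex, was at -0.23, and Tk1, thymidine kinase, and Brca2 led the higher side at 0.32 and 0.25. Of 66 other mitosis genes, 32 were higher and 34 lower, with a median of 0.00. Here Hmmr was higher and Cdc25a lower at an unadjusted p under 0.05 (0.25 ± 0.10 and -0.34 ± 0.13, SE), beside 0.923% and 2.5% of all probes. Cdc25c was at 0.27 and Pttg1, or securin, at -0.72 ± 0.41 (SE).

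Foxm1, the activator of G2 and M phase genes, averaged 6.58 ± 0.26 in KO and 6.60 ± 0.24 in WT mice (SD, n = 5 each). Its slope on Mcm5 was 0.72 (adjusted p = 0.016 by limma), beside 19.5% of all probes with a called positive slope. Without KO 2, KO 5 and WT 3 no probe was called on Mcm5. On those arrays, where Kif11 was high, Foxm1 read 6.46, 6.31 and 6.22. Of the 15 histone genes, none passed an unadjusted p under 0.05, and the median difference was -0.07. H4c4 and H4c3 were at -0.39 and -0.34, and H1f2 and H2bc4 at 0.27 and 0.10. Histone genes are near-identical copies, so their probes may read more than 1 of them.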

How the data were processed

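Whole adrenal RNA was labelled with biotin and hybridised to whole-transcript arrays, per the labels. The authors deposited 1 log2 value per probe and array, made with RMA per the submitters' processing notes. The sources used here name neither its software nor a filter or batch correction, and no raw intensity was used. Of 35557 rows, 25689 held values. After 25 array controls were left out, 25664 probes were tested, of which 20777 carry 1 gene symbol, 232 carry several and 4655 carry none.

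Genotypes were compared in R 4.3.3 by limma 3.58.1 (lmFit, eBayes, two-sided) with no other term, and p-values were adjusted after Benjamini and Hochberg across the 25664 probes, with 0.05 as threshold. The same tool gave slopes on Mki67 and Mcm5. Correlations were tested with scipy 1.17.1 (permutation, exact with fewer than 10 arrays). The first component was computed from all probes except the 41 genes. Promoters and spans are from RefSeq, GRCm38.p6. The script was tested on simulated data.

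The set and the gene lists were chosen with earlier results of these data known. Values on every array are given for Mki67, Top2a, Cdk1, Mcm5, Mcm6 and Rrm2, for the 4 genes with the smallest p in each direction and the 4 with the largest SD. Of other lists, the 2 genes with the smallest p in each direction are named. Cdc20, Kif11, Cenpe, Plk1 and others in the account of the array pattern, and the third of the G1 regulators and inhibitors, were named after their values were seen. The labels name 5 biological replicates for each genotype, so arrays were taken as separate mice. The number of arrays limits the precision. Figures were drawn with matplotlib 3.10.9.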

Additional observations from a re-analysis of the deposited data

Results flagged for a closer look

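In 3 of 86 sets of 5 arrays (41 genes and the 2 list means, in KO and WT mice apart) 1 array lay far from the rest of its group, where chance gives about 1 in 20. Rrm1 read 9.88 on KO 4, with the nearest KO array at 9.52. The mean of the replication genes was 7.72 on KO 4, with the nearest KO array at 7.44. Cenpe read 5.66 on WT 3, with the nearest WT array at 5.02. KO 4 was also the array with the highest Mcm5 level (8.23), and WT 3 one of the arrays set apart by the first component. Their part in these values was not tested.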

How the results depend on the processing

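The differences between KO and WT mice were recomputed with batch as a fixed or random block, within batches 1 and 3, after a median shift or a repeated quantile normalisation, on brighter or single-symbol probes, with trend and robust eBayes, array weights, the probes of a gene averaged, an adjusted p under 0.01, the first component as covariate, and without single arrays or sets of arrays. The first component and the left-out sets (KO 2, KO 5 and WT 3, or KO 1 and KO 3) were chosen after seeing the data. None of the 41 genes was called in any of these fits, and 1 probe outside the set was called with the first component as covariate. The median difference was -0.31 for replication and -0.26 for mitosis genes within batch 1, and leaving out 1 array gave -0.22 to -0.07 and -0.02 to 0.06. The sign turned for at most 10 of the 41 genes, with batch as a fixed block and within batch 1. The number of genes with no overlap of KO and WT values was 0 after the median shift and 1 to 3 when 1 array was left out (3 without WT 3). With fewer arrays a lack of overlap is easier to reach. The share of all probes without overlap is not given here for these settings, so the counts say nothing particular about the set.

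With Mcm5, the 16 genes became 5 with batch as a block in place of the genotype term (1119 of 25663 probes positive, 828 negative). Among brighter probes they became 10 of 14, but the share of all brighter probes is not given here. They became 4, with 1 negative, without KO 4 and KO 2, the arrays farthest from the Mcm5 median (1042 and 1701 of 25663 probes). With the first component as a term, or without KO 2, KO 5 and WT 3, 0 genes and 0 probes were called. Leaving out 1 array gave 11 to 16 genes positive and 0 to 2 negative (2 without KO 4), and 2542 to 5636 probes positive (2542 without KO 2, 3169 without WT 3) and 1880 to 4035 negative (1880 without KO 2). With Mki67, leaving out 1 array gave 0 to 2 genes and 0 to 1244 probes positive and 0 to 232 negative, above 0 only without KO 2. The cause was not tested.

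With the first component taken out, r turned to 0.47 for Mki67 with Cdk1, 0.24 for Mcm5 with Mcm6 and 0.32 for Mki67 with Mcm5. Without KO 2, KO 5 and WT 3 these were 0.63, 0.078 and 0.49, and Mcm5 with Mcm6 was 0.17 without KO 4 and KO 2. The CHR share over all 33 promoters was 27.3% before the start of the gene, against 45.5% in the whole window. No paired analysis was possible because the labels give no number shared by KO and WT mice. RMA values carry no detection call, so no gene was classed as absent.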
